A study of Mus musculus with 24 samples.

Results

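This report describes 9 genes used to follow the developmental origin of cortical and hippocampal interneurons: Lhx6, Sox6, Satb1, Nkx2-1, Adarb2, Nr2f2, Npas1, Maf and Dlx6os1. They were taken by name from a single-nucleus RNA-seq (snRNA-seq) count table of 33902 gene symbols, and all 9 were found. The rule takes them by name and uses no measured value. The working name for the set was interneuron transcription factors, but 2 of the 9 encode no transcription factor: Adarb2 encodes a brain RNA-binding protein of the ADAR family that lacks editing activity, and Dlx6os1 (also known as Evf2) is a long non-coding RNA. The nuclei came from microdissected ventral hippocampus of adult male mice of the inbred strains C57BL/6J (B6) and DBA/2J (D2), 10 to 16 weeks old and untreated. Each strain had 2 snRNA-seq libraries, numbered 2 and 3, and 2 libraries of single-nucleus chromatin accessibility (snATAC-seq), each from a pool of about 2 animals. For snRNA-seq the sort was set to about 75% NeuN-positive nuclei, so the share of neurons reflects the sort. Counts had been added up for each cell type and library, with 17 cell types in snRNA-seq and 15 in snATAC-seq, so each p-value below measures the spread between pools of mice and not between single animals or nuclei.

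Forebrain interneurons are born in the ganglionic eminences of the ventral telencephalon and migrate to the cortex and hippocampus. In the medial ganglionic eminence (MGE) the homeodomain factor Nkx2-1 switches on Lhx6, and Lhx6 acts upstream of Sox6 and Satb1 in the cells that become somatostatin and parvalbumin interneurons, while Maf favours the somatostatin fate. The caudal ganglionic eminence (CGE) gives rise to the vasoactive intestinal peptide and cholecystokinin interneurons, in which the nuclear receptor Nr2f2 (COUP-TFII), the bHLH-PAS repressor Npas1 and Adarb2 are used as markers. Dlx6os1 is transcribed from the Dlx5 and Dlx6 locus, whose homeobox genes act throughout the ganglionic eminences. Lamp5 interneurons of the hippocampus include cells that carry Lhx6 and are thought to come from the MGE.

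The 4 snRNA-seq libraries held 6312 to 8707 nuclei and 43048686 to 56452272 counts. Between 9.62% and 11.1% of the nuclei of a library were in 1 of the 3 interneuron types. MGE interneurons (Inh-MGE) had 309 to 490 nuclei and 2851256 to 4074254 counts per library, CGE interneurons (Inh-CGE) 210 to 273 nuclei and 1806953 to 2253504 counts, and Lamp5 interneurons (Inh-Lamp5) 88 to 142 nuclei and 747867 to 1152849 counts. Levels are given as CPM, counts per 1000000 of the scaled library size of that cell type, in the order B6 library 2, B6 library 3, D2 library 2 and D2 library 3. The 3 types carried the interneuron gene Gad2. It encodes a GABA-synthesising enzyme and read 226 to 646 CPM in them and at most 20.6 CPM in a library of any other type. The MGE and CGE marker lists were highest in the types of those names, but they hold Lhx6 and Adarb2, so they are not independent of the genes described here. The Lamp5 marker list (Lamp5, Ndnf, Npy and Reln) summed to 1400 to 2276 CPM in Lamp5 interneurons, but to 1427 to 6471 CPM in Cajal-Retzius cells. The gene Lamp5 itself read 218 to 338 CPM in Lamp5 interneurons, and at most 18.9 CPM in CGE and 4.88 CPM in MGE interneurons. Reln was also highest there among the interneuron types (972 to 1516 CPM). Ndnf overlapped with CGE interneurons (126.5 to 212.5 against 94.4 to 129.4 CPM), and Npy had a higher mean in MGE (177.6 CPM) than in Lamp5 interneurons (108 CPM).

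The 9 genes lie on 7 chromosomes (GENCODE vM21, GRCm38). The MGE regulators are Lhx6 at chr2:36081953-36105408, Sox6 at chr7:115470872-116038796, Satb1 at chr17:51736187-51833290 and Nkx2-1 at chr12:56531958-56536908, all on the minus strand. Of the genes used for the CGE, Adarb2 is at chr13:8202866-8768747 on the plus strand, Nr2f2 at chr7:70351944-70366735 and Npas1 at chr7:16455721-16477728 on the minus strand. Maf is at chr8:115682942-115707794 and Dlx6os1 at chr6:6820189-6871592, both on the minus strand, and Dlx6os1 runs antisense to Dlx6. Sox6 and Adarb2 are long genes, of 567925 and 565882 bases, and most of their span is intron.

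The 300 bases around a start site (250 before, 50 after) are shown for 4 members. Those of Dlx6os1 and Adarb2 hold the motif marked in capitals, and those of Lhx6 and Npas1 go with promoter peaks whose levels in the interneuron types are given below. The sequences are RefSeq's (GRCm38.p6), written 5′ to 3′ on the strand of the gene. Capitals mark TAATTA, the core that homeodomain proteins such as those of the Lhx and Dlx families bind, and it reads the same on both strands.
Dlx6os1, chr6:6869484-6869783, minus strand: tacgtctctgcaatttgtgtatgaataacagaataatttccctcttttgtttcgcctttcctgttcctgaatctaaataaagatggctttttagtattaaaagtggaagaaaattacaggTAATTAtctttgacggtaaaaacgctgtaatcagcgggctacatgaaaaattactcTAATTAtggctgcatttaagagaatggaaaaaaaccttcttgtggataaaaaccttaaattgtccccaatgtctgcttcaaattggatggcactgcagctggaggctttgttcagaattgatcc
Dlx6os1, chr6:6861634-6861933, minus strand: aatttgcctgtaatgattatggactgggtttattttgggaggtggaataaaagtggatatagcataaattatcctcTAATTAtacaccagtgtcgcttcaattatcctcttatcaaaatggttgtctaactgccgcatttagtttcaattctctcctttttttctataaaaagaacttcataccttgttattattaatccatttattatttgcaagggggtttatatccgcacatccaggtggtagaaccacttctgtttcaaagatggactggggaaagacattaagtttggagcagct
Adarb2, chr13:8202616-8202915, plus strand: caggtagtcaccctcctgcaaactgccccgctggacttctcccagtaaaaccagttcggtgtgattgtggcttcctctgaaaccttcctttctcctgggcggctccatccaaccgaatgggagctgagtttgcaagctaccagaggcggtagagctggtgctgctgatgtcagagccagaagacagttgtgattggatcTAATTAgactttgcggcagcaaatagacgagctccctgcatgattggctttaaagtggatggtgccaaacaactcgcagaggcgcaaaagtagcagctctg
Lhx6, chr2:36105359-36105658, minus strand: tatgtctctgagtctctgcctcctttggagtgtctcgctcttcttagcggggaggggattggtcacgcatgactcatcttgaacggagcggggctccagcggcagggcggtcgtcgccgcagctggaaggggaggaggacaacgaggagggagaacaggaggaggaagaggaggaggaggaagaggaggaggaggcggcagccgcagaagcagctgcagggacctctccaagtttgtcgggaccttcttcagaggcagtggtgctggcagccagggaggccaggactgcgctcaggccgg
Npas1, chr7:16476731-16477030, minus strand: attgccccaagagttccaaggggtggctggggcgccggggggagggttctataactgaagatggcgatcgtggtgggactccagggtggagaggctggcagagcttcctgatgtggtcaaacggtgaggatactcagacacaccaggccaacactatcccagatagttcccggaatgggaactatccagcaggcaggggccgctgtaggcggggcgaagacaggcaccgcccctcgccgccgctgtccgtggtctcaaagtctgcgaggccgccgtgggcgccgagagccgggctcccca
TAATTA occurred 2 times in the first Dlx6os1 window, 1 time in the second and 1 time in that of Adarb2, and did not occur in the windows of Lhx6 and Npas1. Of 32851 RefSeq promoters of the same length, 5.29% held it. The Dlx6os1 and Adarb2 windows were chosen because they hold it, and no other RefSeq window of a member did. Maf had no RefSeq window. A match is a string of letters and not a bound site. The Lhx6 and Npas1 windows held 16 and 20 CG dinucleotides, more than 67.0% and 73.5% of all promoters, whose median was 7. The Dlx6os1 windows held 5 and 3 and that of Adarb2 held 9.

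Across the 17 cell types, 6 of the 9 members had their highest mean level in an interneuron type. Lhx6, Nkx2-1 and Dlx6os1 were highest in Lamp5, Adarb2 and Npas1 in CGE, and Satb1 in MGE interneurons. The other three were highest in non-neuronal cells: Sox6 in oligodendrocyte precursors, Nr2f2 in vascular and leptomeningeal cells and Maf in microglia. The cell types had been made by clustering the same expression values and several members are known markers, so the order of levels is a description and carries no test. In counts summed over nuclei, fewer expressing nuclei and less RNA per nucleus cannot be told apart. Of all counts of a gene, the interneuron types held 96.1% for Dlx6os1, 94.7% for Lhx6, 93.2% for Nkx2-1, 82.5% for Npas1, 72.2% for Maf and 64.5% for Adarb2, but 32.6% for Satb1, 20.1% for Sox6 and 13.4% for Nr2f2. These shares depend on how many nuclei of each type were sampled.

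**Figure D1:**
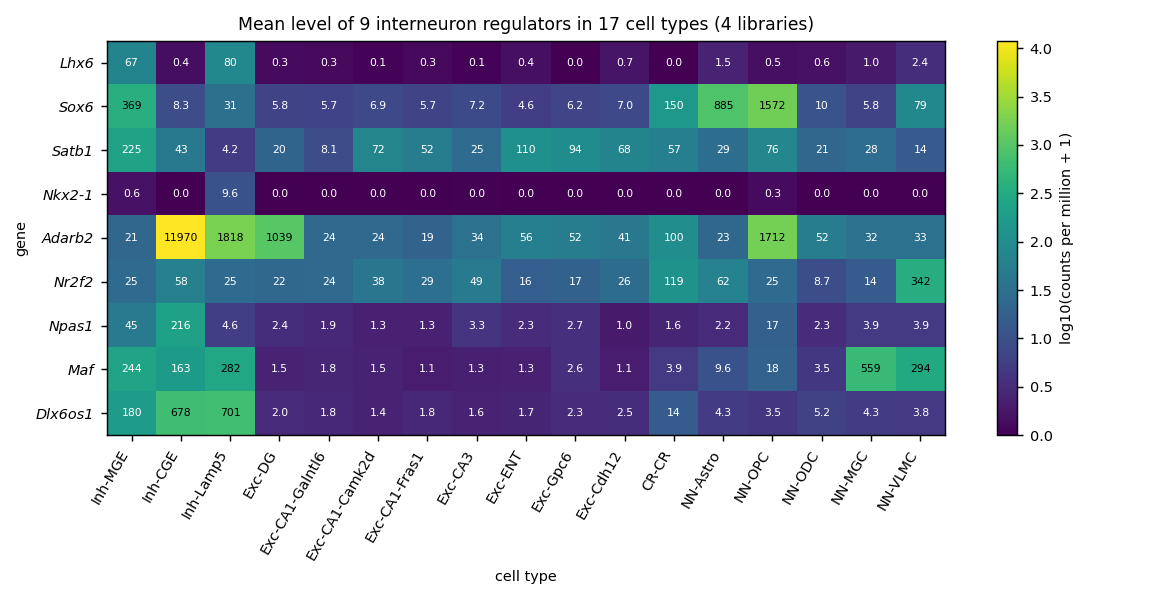
Mean level of each member in each of the 17 cell types over the 4 snRNA-seq libraries, coloured by log10(CPM + 1) and printed in each cell. Dlx6os1 stood out in every interneuron column, Lhx6 in those of MGE and Lamp5 and Nkx2-1 in that of Lamp5 interneurons. Sox6 reached 1572 CPM in oligodendrocyte precursors and Maf 559.1 CPM in microglia.

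Lhx6, the LIM homeodomain factor that follows Nkx2-1 in the MGE lineage, separated MGE and Lamp5 from CGE interneurons. Its level in MGE interneurons was 57.9, 62.4, 81.8 and 66.8 CPM, from 204, 243, 334 and 196 counts. In Lamp5 interneurons it was 63.7, 78.0, 111 and 65.3 CPM, from 62, 88, 93 and 51 counts. The 2 ranges overlapped, so these types could not be ordered for Lhx6. CGE interneurons had 0, 2, 0 and 1 counts, and no library of any type outside MGE and Lamp5 interneurons exceeded 4.22 CPM. Cajal-Retzius cells and Exc-Gpc6 neurons had none, which with 3 counts as the limit allows up to 2.37 and 0.367 CPM.

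Nkx2-1, the factor at the head of the MGE programme, was barely detected in these adult nuclei. The 4 libraries held 44 Nkx2-1 counts in all, of which 33 were in Lamp5 and 8 in MGE interneurons. Lamp5 interneurons had 3, 6, 10 and 14 counts (3.08, 5.32, 12 and 17.9 CPM) and MGE interneurons 2, 0, 3 and 3 counts. Every library of Lamp5 interneurons was above every library of MGE interneurons in CPM. In 13 of the 17 types there was no Nkx2-1 count, and for CGE interneurons this allows up to 0.385 CPM.

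Sox6 and Satb1, which act downstream of Lhx6, were both high in MGE interneurons but parted in Lamp5 interneurons. Sox6, an SRY-box factor, read 387, 391, 388 and 310 CPM in MGE interneurons, 31.9, 23.1, 39.5 and 30.7 CPM in Lamp5 and 7.01, 5.42, 8.51 and 12.4 CPM in CGE interneurons. The MGE mean was 44.2 times the CGE mean, with 25.0 to 72.1 times in single libraries, and 11.8 times the Lamp5 mean. Satb1, a chromatin-organising factor that promotes maturation of somatostatin cells, read 270, 245, 200 and 187 CPM in MGE interneurons and 51.8, 38.0, 47.9 and 36.2 CPM in CGE interneurons. In Lamp5 interneurons it was 5.14, 1.77, 5.99 and 3.84 CPM, the lowest mean of the 17 types and 53.8 times below that of MGE interneurons. Lamp5 interneurons thus carried Lhx6 at a level overlapping that of MGE interneurons with hardly any Satb1.

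Maf, a basic leucine zipper factor, was present in all 3 interneuron types. Its levels were 303, 334, 254 and 238 CPM in Lamp5, 248, 291, 222 and 216 CPM in MGE and 158, 159, 179 and 156 CPM in CGE interneurons. The Lamp5 and MGE ranges overlapped, and CGE was below both in every library, with the MGE mean 1.5 times the CGE mean. No excitatory type exceeded 4.78 CPM.

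Adarb2 showed the widest range among the interneuron types. CGE interneurons read 11510, 12670, 12320 and 11380 CPM, Lamp5 interneurons 1820, 1636, 1580 and 2236 CPM and MGE interneurons 23.8, 39.3, 9.79 and 13.0 CPM. The CGE mean was 6.58 times that of Lamp5 and 558 times that of MGE interneurons, and no ranges overlapped. Npas1 followed the same order for CGE and MGE but not for Lamp5: CGE interneurons had 172, 174, 257 and 263 CPM, MGE interneurons 38.9, 31.8, 56.5 and 52.2 CPM and Lamp5 interneurons 3.08, 4.43, 7.18 and 3.84 CPM. Lamp5 interneurons therefore held Adarb2 but almost no Npas1, at 17 counts over the 4 libraries.

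Nr2f2 was the least selective of the CGE genes. Its level in CGE interneurons, 67.4, 53.7, 53.3 and 57.8 CPM, was 2.29 times that of MGE interneurons (31.8, 21.6, 24.2 and 23.9 CPM) in the means. Lamp5 interneurons, at 24.7, 27.5, 19.2 and 29.4 CPM, overlapped with MGE interneurons. Dlx6os1 was found in all 3 types, with 572, 552, 771 and 910 CPM in Lamp5, 671, 590, 687 and 766 CPM in CGE and 181, 180, 176 and 182 CPM in MGE interneurons. Lamp5 and CGE overlapped for Dlx6os1, and the CGE mean was 3.78 times that of MGE interneurons. Outside the interneurons the highest library was one of Cajal-Retzius cells with 27.4 CPM, from 4 counts.

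**Figure D2:**
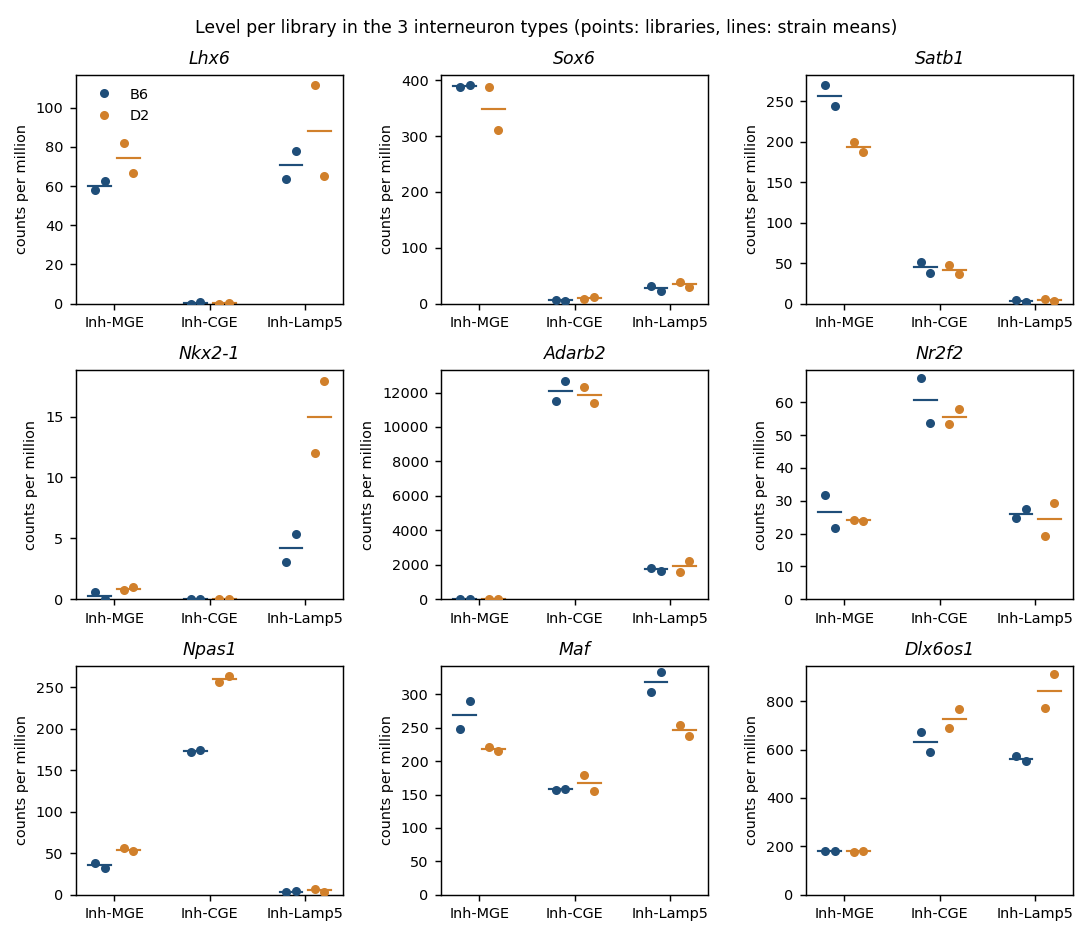
Level of each member in the 4 libraries of the MGE, CGE and Lamp5 interneurons, in CPM on a linear axis from 0 that differs between panels; points are libraries, coloured by strain, and lines are strain means. Lhx6 and Sox6 sat lowest in CGE interneurons, Satb1 and Npas1 lowest in Lamp5 interneurons, and Adarb2 lowest in MGE interneurons.

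Outside the interneurons the members marked glia, vascular cells and some excitatory neurons. Sox6 read 1583, 1544, 1547 and 1612 CPM in oligodendrocyte precursors and 830, 802, 913 and 996 CPM in astrocytes, both above every library of MGE interneurons in CPM. Counted per nucleus, astrocytes overlapped with MGE interneurons and had the lower mean (2764 against 3279 counts per 1000 nuclei). Maf was highest in microglia (487, 631, 585 and 534 CPM), followed by vascular and leptomeningeal cells (241, 255, 348 and 331 CPM), which overlapped with Lamp5 interneurons. The microglial level of Maf stood above all others in CPM. Per 1000 nuclei, microglia (882 to 1318 Maf counts) and vascular and leptomeningeal cells (582 to 1195) lay below Lamp5 interneurons (1696 to 2772).

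Nr2f2, which is also known for its role in venous and lymphatic vessels, was highest in vascular and leptomeningeal cells, at 346, 288, 350 and 382 CPM. Cajal-Retzius cells (122, 149, 117 and 87.3 CPM) and astrocytes (57.4, 57.2, 62.0 and 72.3 CPM) came next, and the astrocyte range overlapped with that of CGE interneurons in CPM. Per nucleus, astrocytes lay below CGE interneurons (163 to 244 against 436 to 510 Nr2f2 counts per 1000 nuclei). CA3 neurons overlapped with CGE interneurons for Nr2f2 in CPM (45.4 to 58.4 against 53.3 to 67.4). Per 1000 nuclei they overlapped too, with the higher mean in CA3 neurons (521.1 against 463.3 counts). Adarb2 in oligodendrocyte precursors (1972, 1691, 1441 and 1742 CPM) overlapped with Lamp5 interneurons in CPM, and dentate gyrus neurons (Exc-DG) carried 1194, 1264, 861 and 837 CPM. Counted per nucleus, oligodendrocyte precursors lay below Lamp5 interneurons (4833 to 7016 against 10560 to 19850 Adarb2 counts per 1000 nuclei). The remaining types had at most 134 CPM of Adarb2. Satb1 was second highest in Exc-ENT neurons, with 116, 122, 100 and 102 CPM. Exc-Gpc6 neurons, at 106, 115, 87.3 and 69.1 CPM of Satb1, overlapped with them.

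Across the 17 types, the genes whose pattern was most like that of each member were ranked by the lower of the Pearson correlations of log2(CPM + 1) in the B6 and D2 means, among 15056 genes with counts in both strains and at least 10 CPM in a type. The correlations are descriptions, over 17 points whose libraries and clustering are shared. Dlx6os1 was most like Gad2 (0.97), which encodes a GABA-synthesising enzyme, and it was also close to Slc32a1 (0.95), the vesicular GABA transporter. Lhx6 was most like the long non-coding RNA Gm34623 (0.93), Nxph2 (0.86) and Npy (0.79), the gene of neuropeptide Y. Npas1 was most like Grpr (0.89) and Npffr1 (0.84), which encode peptide receptors. Satb1 and Adarb2 had no close partner, with Grik3 at 0.70 and Asic4 at 0.76 as the first.

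For 4 members the closest pattern belonged to a neighbouring transcript. Sox6 was matched best by Gm45025 (0.99) and Maf by Gm15655 (0.98), non-coding transcripts inside the gene on the other strand. Nkx2-1 was matched best by Sfta3-ps (0.96), 2531 bases away, and Nr2f2 by Gm29683 (0.89), 14092 bases away, both on the strand of the member. Among the members themselves the highest correlations were between Lhx6 and Nkx2-1 (0.74 in B6 and 0.82 in D2), Npas1 and Dlx6os1 (0.69 and 0.72) and Lhx6 and Dlx6os1 (0.70 and 0.69). The correlations of Nkx2-1, with Sfta3-ps and with Lhx6, rest largely on Lamp5 interneurons. That type held 33 of the 44 Nkx2-1 counts and 13 types held none, so these correlations say little about the other types.

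The strains were then compared within each cell type with edgeR's quasi-likelihood test, D2 over B6, with p-values adjusted over all genes of the type. Of 153 pairs of member and cell type, 89 passed the filter on low counts and 22 of these (24.7%) passed an adjusted p of 0.05. Of the 22, the level was higher in D2 for 8 and lower for 14. Over all genes, 22.1% of 219518 pairs were called. That share holds genes counted in one strain only. Among genes with counts in both strains, 14.4% of 205259 pairs and 21 pairs of the members were called. A call was found for 7 members, but edgeR and DESeq2 called Lhx6 (2 types tested with edgeR, 1 at an unadjusted p under 0.05) and Nr2f2 (16 types tested, 0 at that p) in no type. In MGE interneurons 3 of 8 tested members were called, where the share over all genes was 21.0% (11.5% among genes with counts in both strains). In CGE interneurons the numbers were 1 of 7 against 15.1% (8.02%), and in Lamp5 interneurons 2 of 7 against 12.1% (8.46%).

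Npas1, the repressor that marks the CGE lineage, was higher in D2 in both interneuron types in which it passed the filter. In CGE interneurons it rose from 172 and 174 CPM in B6 to 257 and 263 CPM in D2, with a log2 fold change of 0.59 (SE 0.12, edgeR adjusted p = 0.00124). In MGE interneurons it rose from 38.9 and 31.8 to 56.5 and 52.2 CPM, a log2 fold change of 0.64 (SE 0.14, edgeR adjusted p = 0.00378). The strains did not overlap in either type, and the difference between the types, -0.06 on the log2 scale (SE 0.16), did not pass its test (edgeR adjusted p = 1). In CGE interneurons the call was lost without D2 library 2 (log2 fold change 0.61, edgeR adjusted p = 0.237) or D2 library 3 (log2 fold change 0.57, edgeR adjusted p = 0.284). Without either of these libraries edgeR called 0 of 13233 and 0 of 13306 genes of this type (2375 and 2049 at an unadjusted p under 0.05), so the loss of the call was not particular to Npas1. In CA3 neurons (Exc-CA3) Npas1 was lower in D2, from 38 and 29 counts in B6 to 9 and 6 in D2 (log2 fold change -1.76, edgeR adjusted p = 0.00108). The Npas1 calls in MGE interneurons and in CA3 neurons were each lost with DESeq2.

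Dlx6os1 was higher in D2 in Lamp5 interneurons, the type with its highest mean. It rose from 572 and 552 to 771 and 910 CPM, a log2 fold change of 0.60 (SE 0.12, edgeR adjusted p = 0.000421). In MGE interneurons its 4 libraries lay between 176 and 182 CPM, with a 0.00 log2 fold change (SE 0.10, edgeR adjusted p = 0.995). In CGE interneurons the change was 0.21 (SE 0.12, edgeR adjusted p = 0.283). The libraries of D2 were above those of B6 in CGE interneurons too, but by less.

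Nkx2-1 in Lamp5 interneurons was the only tested pair of that gene. From 3 and 6 counts in B6 to 10 and 14 in D2, its log2 fold change was 1.78 (SE 0.48, edgeR adjusted p = 0.0114). This call rested on 33 counts and was lost without any 1 of the 4 libraries, where the log2 fold change was between 1.46 and 2.23. Genes of the Lamp5 marker list were higher in D2 in the same libraries, among them Npy (82.3 and 35.5 against 104 and 210 CPM) and Reln (972 and 1039 against 1237 and 1516 CPM). Their part in the Nkx2-1 and Dlx6os1 results was not tested.

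Satb1 was lower in D2 in 6 of the 15 types where it was tested and higher in none. In MGE interneurons it fell from 270 and 245 to 200 and 187 CPM (log2 fold change -0.40, SE 0.11, edgeR adjusted p = 0.0114), and this call was lost without D2 library 3 (-0.36). In dentate gyrus neurons it fell from 26.0 and 24.9 to 13.7 and 14.7 CPM (log2 fold change -0.82, edgeR adjusted p = 9.74e-05). The other types were CA3 (-0.82), Exc-CA1-Fras1 (-0.59), Exc-Gpc6 (-0.47) and oligodendrocyte precursors (-0.45). The strains did not overlap in any of the 6. The call in oligodendrocyte precursors was lost without any 1 library, that in Exc-Gpc6 without B6 library 3 (-0.42) or D2 library 3 (-0.35) and that in Exc-CA1-Fras1 without D2 library 2 (-0.45).

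Beside these Satb1 values stands a difference in which symbols were counted in each strain. The table has 5 symbols that lie inside Satb1 on its strand (E430014B02Rik, C230085N15Rik, Gm36931, 5830444F18Rik and Gm37248), and all 5 were counted in the D2 libraries only, with no B6 count in any cell type. Over all symbols counted, 3022 reached 50 counts in D2 while at 0 in B6, and 129 did the reverse. In MGE interneurons the 5 symbols held 247 and 160 counts in the D2 libraries, beside 815 and 549 for Satb1 itself. With their counts added to Satb1, its log2 fold change in MGE interneurons was -0.03 (edgeR adjusted p = 0.902), and of the 6 calls that in dentate gyrus neurons was left (-0.40, edgeR adjusted p = 0.0157). Whether reads of Satb1 had been counted under these symbols in D2 was not tested. Adarb2 holds 3 and Dlx6os1 2 such symbols, which again were counted in the D2 libraries only. With these added, Adarb2 in MGE interneurons stayed at -1.50 and in dentate gyrus neurons read -0.49 in place of -0.52, and Dlx6os1 in Lamp5 interneurons read 0.62.

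**Figure D3:**
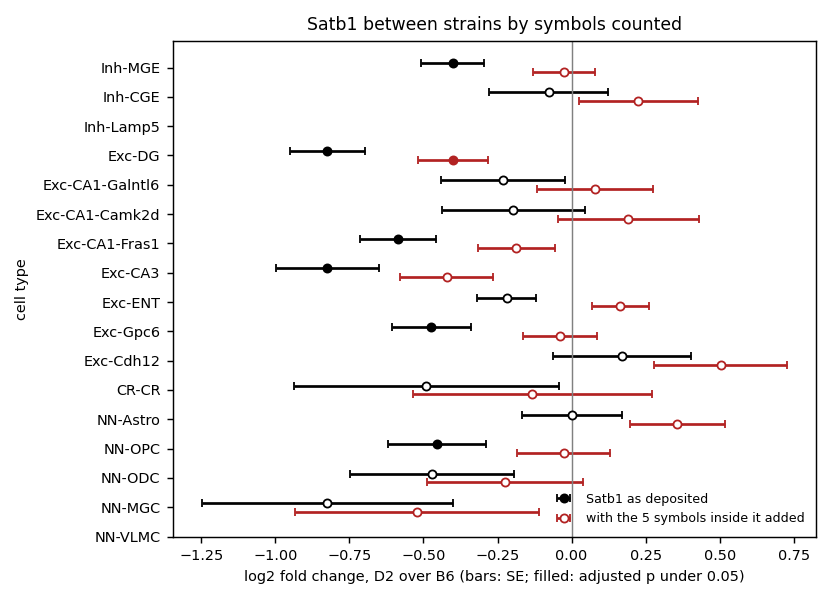
Log2 fold change of Satb1 (D2 over B6) in each cell type where it was tested, as deposited (black) and after adding the counts of the 5 symbols inside the gene (red); bars show the standard error and filled points an edgeR adjusted p under 0.05. In MGE interneurons the estimate moved from -0.40 to -0.03, and Exc-DG alone kept a filled point.

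Adarb2, at its high level in CGE interneurons, showed no strain difference that passed the test (log2 fold change -0.02, SE 0.12, edgeR adjusted p = 0.94), nor did it in Lamp5 interneurons (0.16, SE 0.13, edgeR adjusted p = 0.506). In dentate gyrus neurons it fell from 1194 and 1264 to 861 and 837 CPM (log2 fold change -0.52, edgeR adjusted p = 6.8e-06). In MGE interneurons the counts were 84 and 153 in B6 and 40 and 38 in D2, a log2 fold change of -1.50 (SE 0.26, edgeR adjusted p = 0.000277). The mean in MGE interneurons was the second lowest of the 17 types, next to Exc-CA1-Fras1 with 16.8 to 22.0 CPM. The other 5 CGE markers summed to 115 and 87.8 CPM in the B6 and 105 and 123 CPM in the D2 libraries of MGE interneurons, and none of them was called there. Most of this sum was Cck (43.4 to 49.8 CPM) and Cnr1 (39.0 to 66.8 CPM). In CGE interneurons the same 5 markers summed to 1708 and 1576 CPM in B6 and 1869 and 2877 CPM in D2.

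Adarb2 was called in 6 further types, all with low levels. It was lower in D2 in Exc-ENT (-0.52), oligodendrocytes (-0.77), Exc-CA1-Galntl6 (-0.79), Exc-Cdh12 (-1.43) and vascular and leptomeningeal cells (-2.97), and higher in Exc-Gpc6 (0.52). B6 library 3 was the highest library in each of the 5 types with a fall, as it was in MGE interneurons. Without that library the calls in Exc-ENT (-0.25), Exc-Cdh12 (-0.61) and vascular cells (-2.26) were lost. The call in Exc-ENT was also lost without D2 library 2 (-0.25), that in oligodendrocytes without D2 library 3 (-0.56) and that in Exc-Gpc6 without B6 library 2 (0.38) or D2 library 2 (0.50). Over all cell types Adarb2 made up 730, 775, 757 and 764 CPM of the 4 libraries' totals. Whether RNA released from other nuclei had a part in these low levels was not tested.

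The difference between CGE and MGE interneurons in their strain effect was tested in 1 fit over the interneuron columns of all libraries. Adarb2 was the only member called, with an effect 1.46 higher in CGE interneurons on the log2 scale (SE 0.23, edgeR adjusted p = 5.57e-06), where 0.509% of 14157 genes were called. The value was 1.11 without B6 library 3 (edgeR adjusted p = 0.105) and 1.19 without D2 library 2 (edgeR adjusted p = 0.118), so the call rested on those libraries. The estimates for Maf (0.37, SE 0.14), Sox6 (0.85, SE 0.38), Satb1 (0.31, SE 0.19) and Dlx6os1 (0.20, SE 0.13) did not pass the test.

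None of the remaining members was called between the strains in an interneuron type. Lhx6 in MGE interneurons was 57.9 and 62.4 CPM in B6 and 81.8 and 66.8 CPM in D2 (log2 fold change 0.32, SE 0.13, edgeR adjusted p = 0.1). Maf was lower in D2 in the point estimate in MGE (-0.29, SE 0.11, edgeR adjusted p = 0.0727) and Lamp5 interneurons (-0.36, SE 0.13, edgeR adjusted p = 0.0837), without overlap of the strains in either. Neither gene passed the test, and these data do not tell a small difference from none. For Nr2f2 the log2 fold changes over 16 types ranged from -0.30 to 0.38, and none was called. Sox6 in MGE interneurons was at -0.15 (SE 0.12, edgeR adjusted p = 0.431). In CGE interneurons its estimate was larger, 0.73 (SE 0.39, edgeR adjusted p = 0.251), from 13 and 10 counts in B6 and 19 and 23 in D2. In Lamp5 interneurons it was 0.39 (SE 0.30, edgeR adjusted p = 0.501).

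Outside the interneurons, calls for members other than Adarb2, Satb1 and Npas1 were few and at low levels. Sox6 rose in Exc-CA1-Fras1 (log2 fold change 1.21, from 18 and 11 to 35 and 25 counts) and in CA3 neurons (0.89, from 34 and 32 to 56 and 38 counts). Maf rose in astrocytes (0.87, from 21 and 23 to 43 and 45 counts). The Maf call was lost without any 1 library, that of Sox6 in Exc-CA1-Fras1 without B6 library 3 (1.00) or D2 library 2 (1.13) and that in CA3 neurons without B6 library 2 (0.79) or D2 library 2 (0.76). By cell type, the members called and the share of all genes called were 2 of 7 and 36.0% in Exc-DG, 3 of 6 and 32.1% in Exc-CA3, 2 of 4 and 28.5% in Exc-CA1-Fras1, 1 of 7 and 35.0% in Exc-CA1-Galntl6 and 1 of 5 and 28.0% in Exc-ENT. They were 2 of 4 and 19.7% in Exc-Gpc6, 1 of 3 and 8.44% in Exc-Cdh12, 1 of 6 and 26.2% in astrocytes, 1 of 4 and 19.0% in oligodendrocytes, 1 of 6 and 16.2% in oligodendrocyte precursors and 1 of 4 and 7.87% in vascular and leptomeningeal cells. With edgeR none was called of 4 members tested in Exc-CA1-Camk2d (share over all genes 19.4%), 3 in microglia (10.4%) and 4 in Cajal-Retzius cells (4.26%), where 0, 1 and 2 of them had an unadjusted p under 0.05 and DESeq2 called none.

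**Figure D4:**
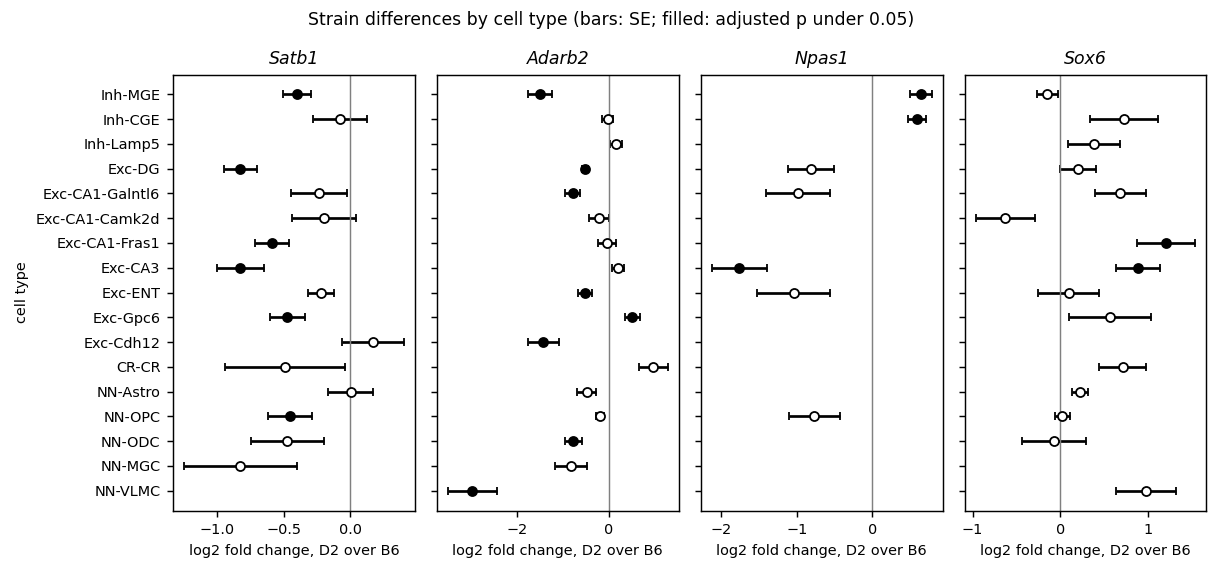
Log2 fold change (D2 over B6) of Satb1, Adarb2, Npas1 and Sox6 in each cell type where the gene was tested; bars show the standard error and filled points an edgeR adjusted p under 0.05. Npas1 lay above 0 in MGE and CGE interneurons and below 0 in the other 5 types tested, and Satb1 lay above 0 in 2 of 15 types.

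Other regulators of the interneuron lineages, 13 genes listed for comparison, were tested in the same way. Over all genes 21.0%, 15.1% and 12.1% were called in MGE, CGE and Lamp5 interneurons. Among genes with counts in both strains the shares were 11.5%, 8.02% and 8.46%. In MGE interneurons 1 of 11 tested rose and none fell in D2, with a median log2 fold change of 0.04, the same as the median of all genes. In CGE interneurons 1 of 11 rose and 1 fell (median -0.18 against 0.03), and in Lamp5 interneurons 1 of 7 rose and 1 fell (median -0.07 against 0.02). The gene that rose was in each case Nr2f1 (COUP-TFI), the paralog of Nr2f2, with log2 fold changes of 0.51, 0.57 and 0.78 in MGE, CGE and Lamp5 interneurons. Prox1, a homeobox regulator of CGE interneurons, fell in those cells (-0.56), and Dlx1 fell in Lamp5 interneurons (-0.83). The medians of the 9 members were -0.14, 0.09 and 0.33 in the 3 types.

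Of 13 genes that mark interneuron classes, edgeR called none of 11 tested in MGE interneurons (4 at an unadjusted p under 0.05), and DESeq2 called none. The edgeR share over all genes of this type was 21.0%. In CGE interneurons Cck (cholecystokinin) rose by 1.32 on the log2 scale and Erbb4, a neuregulin receptor, fell (-0.41), the only calls among 12. The share over all genes there was 15.1%. In Lamp5 interneurons 4 of 9 rose, Cck (1.51), Npy (1.45), Ndnf (0.50) and Reln (0.47), and none fell, where 12.1% of all genes were called. The other 5 did not pass the test. Symbols lying inside a gene and counted in D2 only were looked for in the members, and not in Erbb4, Prox1 or Dlx1.

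Chromatin accessibility gave a second readout of the members at their promoters. Of the merged snATAC-seq peaks, 12 overlapped a promoter window of a member, at 7 of the 9 genes. Nkx2-1 and Nr2f2 had none in the window. For 7 of the 12 peaks, at Satb1, Adarb2, Npas1, Maf and Dlx6os1, the cell type with the highest mean accessibility was also that with the highest mean RNA level. At Lhx6 the peak at chr2:36104519-36105722, which covers the window printed above, read 35.3, 36.7, 44.5 and 41.2 CPM in MGE and 26.0, 29.1, 28.3 and 25.7 CPM in Lamp5 interneurons. In CGE interneurons it read 4.89, 9.87, 12 and 11.7 CPM, so the types did not overlap.

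At Npas1 and Adarb2 the peaks were more open in CGE interneurons. The Npas1 peak at chr7:16475372-16476913 read 33.4, 25.8, 32.7 and 31.9 CPM in CGE and 12.5, 11.1, 14.0 and 13.0 CPM in MGE interneurons. The Adarb2 peak at chr13:8202170-8203729 read 30.6, 34.3, 39.1 and 31.7 CPM in CGE and 15.6, 14.2, 11.0 and 13.0 CPM in MGE interneurons, a far smaller ratio than that of the RNA. Its mean in Lamp5 interneurons was 30.4 CPM, close to that of CGE interneurons.

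Satb1 had 3 peaks, which did not behave alike. The one at chr17:51826033-51827019 was highest in MGE interneurons, at 7.40, 7.97, 7.56 and 7.24 CPM, against means of 2.57 CPM in Exc-ENT, 1.74 CPM in CGE and 0.906 CPM in Lamp5 interneurons. The one at chr17:51812004-51813872 had its highest mean in oligodendrocyte precursors (32.3 CPM), but its 4 values of 20.0 to 45.1 CPM there rested on 6 to 16 counts and overlapped those of astrocytes (15.4 to 41.1 CPM) and MGE interneurons (23.9 to 25.0 CPM). The Maf peak at chr8:115705533-115708436 was open in all interneuron types (means of 56.0, 53.7 and 53.7 CPM in MGE, CGE and Lamp5) and highest in microglia at 72.1 CPM. The Dlx6os1 peak at chr6:6869202-6870305, around the first printed window, averaged 45.2, 38.6 and 35.8 CPM in Lamp5, CGE and MGE interneurons and at most 10.2 CPM in any library of another type.

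Over the 15 types measured in both assays, the correlation of log2(CPM + 1) of RNA and peak was 0.98 and 0.92 for the 2 Dlx6os1 peaks, 0.94 for Maf, 0.90 and 0.77 for the Lhx6 peaks, 0.88 for Npas1 and 0.83 for Adarb2. It was between 0.54 and 0.69 for the 3 Satb1 peaks, and 0.86 and 0.44 for the 2 Sox6 peaks, the latter the lowest of the 12 peaks. These are descriptions over types of unequal depth.

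**Figure D5:**
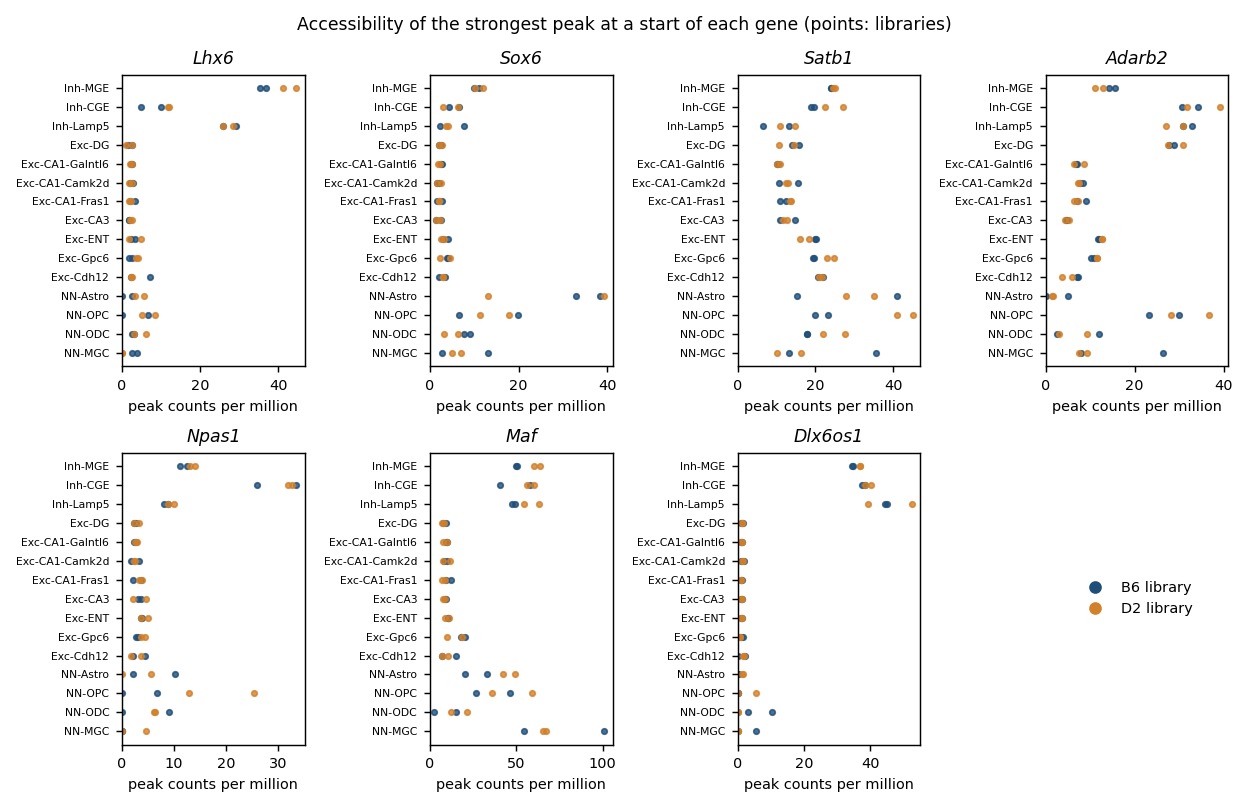
Accessibility of the strongest promoter peak of 7 members in the 15 cell types, in CPM of peak counts on a linear axis; points are snATAC-seq libraries, coloured by strain. Among the interneurons the Lhx6 peak was lowest in CGE cells and the Npas1 peak highest there, and the Dlx6os1 peak stood out in all 3 interneuron types.

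No promoter peak of a member was called between the strains with edgeR, among 12 tested in MGE interneurons, where 0.870% of 239743 peaks were called, and 11 in CGE interneurons, where 0.273% of 184454 peaks were called. At an unadjusted p under 0.05 there were 3 in MGE and 0 in CGE interneurons, and DESeq2 called 0 in both. The Npas1 peak differed by 0.01 on the log2 scale in CGE (SE 0.17) and 0.20 in MGE interneurons (SE 0.18), beside the RNA differences of 0.59 and 0.64. The largest change relative to its error was at Maf in MGE interneurons, from 49.7 and 50.2 to 60.2 and 64.0 CPM (log2 fold change 0.31, SE 0.09, edgeR adjusted p = 0.0867), a direction opposite to that of the RNA estimate.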

How the data were processed

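Nuclei of ventral hippocampus from B6 and D2 mice were profiled by snRNA-seq and snATAC-seq. Per the methods of the study, reads were aligned with Cell Ranger 6.0.2 and Cell Ranger ATAC 2.0.0 to mm10 for B6 and to mm10 with D2 variants inserted for D2, introns were retained, doublets were removed and cell types were defined with Seurat 4.0.5. The release of the gene annotation was not given in the sources used here. The authors deposited raw read counts per gene symbol, and per merged peak, summed over the nuclei of each cell type in each library, with the number of nuclei. Because introns were counted, long genes collect more counts, so levels were compared between cell types and strains and not between genes.

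Levels are CPM over TMM-scaled library sizes of the cell type. Strains were compared with edgeR 4.0.16 (glmQLFit and glmQLFTest, R 4.3.3) within each cell type, with genes filtered by filterByExpr, peaks at a minimum of 10 counts, and Benjamini-Hochberg adjustment over all genes or peaks of the type (threshold 0.05). The contrast between CGE and MGE interneurons came from 1 fit with library, cell type and their strain terms. DESeq2 1.42.0 and the other settings given at the end were alternatives. The scripts were tested on simulated data. With 2 libraries against 2, an exact permutation test could not reach 0.05, so p-values come from the fits across all genes.

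All 9 members are named, and 13 other regulators and 13 class genes are described by counts and medians, with single genes named where they were called. Members and lists were chosen with earlier results of these data known. The columns number the libraries 2 and 3 while the samples are numbered 1 and 2, so which column belongs to which sample was not settled, and no result uses it. Same-numbered libraries of the strains did not deviate together (correlation of deviations from the strain means between -0.125 and 0.059 over the 17 types), so the numbers were not taken as pairs. Libraries had 139713 to 11352265 counts per cell type, and limits for a count of 0 cover counting error only.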

Additional observations from a re-analysis of the deposited data

Results flagged for a closer look

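The strain difference of Adarb2 was not the same in CGE and MGE interneurons by the test of the difference itself (edgeR interaction, CGE minus MGE, 1.456 on the log2 scale, SE 0.23, adjusted p = 5.57e-06). In CGE interneurons B6 and D2 overlapped at 11380 to 12670 CPM, and in MGE interneurons Adarb2 read 23.8 and 39.3 CPM in B6 and 9.79 and 13.0 CPM in D2, lower in both D2 libraries. The call was lost without B6 library 3 (1.11) or without D2 library 2 (1.19). The difference in MGE interneurons rests on 315 counts at a level near the lowest of the 17 cell types, and whether RNA from other nuclei had a part was not tested.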

How the results depend on the processing

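Under the alternatives no called log2 fold change reversed. In MGE interneurons 3 members were called, and 5 with the replicate block crossed (library 2 of a strain with library 3 of the other), an alternative chosen after seeing the data because the correlation of same-numbered libraries was -0.125 there. That block raised the calls over all genes of the type too, from 3173 to 4226 of 15114. Of the 3 members, Npas1 lost its call with DESeq2, and Satb1 lost it with the symbols inside it added or without D2 library 3. Over all genes of the type DESeq2 called 2294 of 28472. In CGE interneurons 1 was called, and 0 to 1 without single libraries. Over all genes of that type 1914 were called, 1278 with DESeq2, and without D2 library 2 or 3 edgeR called 0 (2375 and 2049 at an unadjusted p under 0.05). In Lamp5 interneurons 2 were called, 1 with DESeq2 and 1 to 2 without single libraries. Over all cell types 22 pairs were called, and 9 with DESeq2. Over all genes edgeR called 22.1% of 219518 pairs and DESeq2 7.13% of 448274. In Lamp5 interneurons these shares of all genes were 12.1% with edgeR and 3.06% with DESeq2. The interaction called 1 member, and 0 to 1 without single libraries. With a replicate block by library number the counts were 3, 1 and 2 in MGE, CGE and Lamp5 interneurons and 23 over all types, and no call of the 22 was lost. Of these 22 calls, 13 were lost with DESeq2, 5 with the symbols inside members added, 3 in 1 fit over all cell types, 1 without the filter on low counts, 0 with RLE size factors, and 5 to 9 without single libraries. Dlx6os1 in Lamp5 interneurons, Adarb2 in MGE interneurons, Exc-DG and Exc-CA1-Galntl6 and Satb1 in Exc-DG kept their call in each of 13 alternatives. Nkx2-1 in Lamp5 interneurons lost it in 7 of the 13, with DESeq2 at an adjusted p of 0.659. Depth limits Nkx2-1 in every type, Lhx6 in CGE interneurons, and the peaks in glial types, whose totals of 278059 to 748227 counts per library were lower than those of the interneuron types (1538594 to 7437300).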

Other observations

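Counted per nucleus in place of CPM, the highest type changed for 2 members. Maf averaged 2185 counts per 1000 nuclei in MGE and 2165 in Lamp5 interneurons, against 1185 in microglia, so that 7 of the 9 members were then highest in an interneuron type. Dlx6os1 moved from Lamp5 to CGE interneurons, whose ranges overlapped in CPM. Some comparisons of glia with interneurons also changed per nucleus, as given above for Sox6, Nr2f2 and Adarb2. The Adarb2 promoter peak and the Adarb2 RNA shared CGE interneurons as their highest type, but the levels of the peak lay closer together: it averaged 33.9 CPM in CGE interneurons, 30.4 CPM in Lamp5 interneurons and 29.5 CPM in oligodendrocyte precursors, while the RNA in CGE interneurons was 6.58 times that of Lamp5 interneurons.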
